A study of Mus musculus with 8 samples.

Results

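The mitotic spindle and checkpoint genes are 39 genes whose products carry a cell into mitosis, build the spindle, attach chromosomes to it, hold the cell until the attachments are complete and then divide it. They were chosen by gene symbol, as the rows of the deposited expression table that carry these names, and 39 of 39 were found among its 23356 genes. RNA-seq was performed on bone marrow-derived dendritic cells (BMDCs), which are grown from mouse marrow with the growth factor GM-CSF and the cytokine IL-4, in 8 libraries, 2 for each of 4 groups. The groups were WT DCs (C57BL/6 background in the labels, C57BL/6N in the study's methods) left without treatment, WT DCs treated with ansamitocin-P3 at 100 nM for 5 h, untreated Arhgef2-/- (GEF-H1-/-) DCs on the same background, and GEF-H1-/- DCs given the same treatment. Ansamitocin-P3, a maytansinoid, binds tubulin and breaks microtubules down, and GEF-H1, encoded by *Arhgef2*, is a guanine nucleotide exchange factor for the GTPase RhoA that is held on microtubules and released when they depolymerize. The knockout was carried by the whole animal from the germline, so the marrow cells lacked the protein before they were cultured. The study's methods give young adult, sex-matched mice for its experiments, and the number of mice behind each library is not given in the sources used here. The comparisons ask whether a microtubule destabilizer had left, by 5 h, the transcript pattern of cells held in mitosis, and whether GEF-H1 made a difference to it.

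Transcripts of most mitotic genes are made late in the cell cycle, in G2 and M, and are low in G1 and in cells that have left the cycle. A spindle without working microtubules keeps the spindle assembly checkpoint on, and dividing cells then wait in mitosis with cyclin B largely kept. In a culture of dividing cells, microtubule destabilizers are therefore known to raise the fraction of cells in mitosis, and G2/M transcripts can build up with it. BMDC cultures hold precursors that still divide and dendritic cells that have stopped dividing.

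The table gives 1 value per gene and group in FPKM (fragments per kilobase of transcript scaled to the library's number of fragments), into which Cuffdiff, the authors' program, combined the 2 libraries, with the bounds of a 95% confidence interval. Single-library values are not part of it, so there is no SD, no n and no test behind any difference here, and whether the 2 libraries of a group came from separate animals is not stated. Changes were taken as log2 ratios of FPKM + 1, which understate the change of low genes, and a gene counted as changed past 1 on this scale (2-fold). The interval given for a change combines the Cuffdiff bounds of both groups. All 39 genes had a status of OK, and their lowest value was 2.28 FPKM (*Aspm* in drug-treated WT DCs), so none passed the filter of 1 FPKM through a single group. *Arhgef2* was at 42.3 FPKM (95% interval 34.5 to 49.98) in untreated and 45.9 (36.9 to 54.9) in drug-treated WT DCs, and at 4.59 (3.54 to 5.63) and 4.16 (3.22 to 5.11) in untreated and drug-treated GEF-H1-/- DCs. The 12 dendritic cell markers, all in the table, summed to 5215 to 7763 FPKM. Most of the sum was *Cd74* (3073 to 4935 FPKM) and H2 genes, whereas *Flt3* (1.07 to 2.63 FPKM) and *Cd209a* (0.808 to 3.30 FPKM) were low. In contrast, 6 of 7 erythroid genes were under 1 FPKM in every group, and all 7 summed to 2.57 to 11.6 FPKM. The 1 erythroid gene that passed the filter had a log2 change of 0.80 with the drug in WT DCs. Its log2 difference between untreated GEF-H1-/- and untreated WT DCs was -1.56. In bulk RNA, fewer cells of a type and less RNA per cell cannot be told apart.

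The promoters of these genes shared sequence that their choice by function had not used. G2/M genes are known to be controlled through a cell cycle homology region (CHR), bound by the MuvB core of the DREAM and MYB-FOXM1 complexes, and through CCAAT boxes bound by NF-Y. RefSeq promoter windows (GRCm38.p6, 250 bases before to 50 bases after the start) were at hand for 34 of the 39 genes. *Aurkb*, *Incenp*, *Kif20a*, *Tpx2* and *Ccna2* had no entry. The CHR, searched as TTTGAA or TTCGAA on both strands, was in the window of 26 of 34 genes (76.5%), against 21.7% of all 27025 genes with a window. The letters CCAAT, searched on both strands, were likewise in 26 of 34 (76.5%), against 41.1% of all genes, and both motifs stood together in 23 (67.6%), against 9.65%. A gene with several windows counted once. The motifs were searched separately, a CHR and a CCAAT match overlapped in 1 place among these genes, and a match is a description of sequence, not a bound site. The CHR lay close to the start, with a median first base at -5 and 25 of 35 matches within 50 bases of it on either side, whereas the median CCAAT match began at -61.5. When the window was limited to the 250 bases before the start, the CHR was left in 38.2% of these genes and in 19.6% of all genes. The motifs were not particular to the 39 genes. The 48 other G2/M genes described further on held a CHR in 24 of 35 windows (68.6%), CCAAT in 74.3% and both in 60%. The S-phase genes, also described further on, held a CHR in 4 of 24 windows (16.7%), near the share of all genes, and CCAAT in 66.7%.

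The bases from 120 before to 10 after the start of 8 genes are printed here to show these motifs, 5′ to 3′ along the gene's strand, with CHR and CCAAT matches of either strand in capitals (ATTGG and TTCAAA are the same motifs read on the opposite strand). *Cdc20*, *Cdk1*, *Top2a*, *Kif11* and *Ube2c* each have a CHR in the 50 bases before the start and at least 1 CCAAT box ahead of it (in *Cdc20* another CCAAT box follows it). *Prc1* and *Kif23* are the members with the highest and the lowest change in drug-treated WT DCs on the log2 scale of FPKM + 1, and *Birc5* has no match in its whole window.
Cdc20 (chr4:118437334-118437463, minus strand): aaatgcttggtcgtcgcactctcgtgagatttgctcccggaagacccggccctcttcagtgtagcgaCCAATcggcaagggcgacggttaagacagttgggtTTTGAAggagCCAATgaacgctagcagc
Cdk1 (chr10:69352903-69353032, minus strand): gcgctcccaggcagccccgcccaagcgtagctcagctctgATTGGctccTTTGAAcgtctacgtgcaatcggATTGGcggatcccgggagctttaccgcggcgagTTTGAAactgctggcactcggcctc
Top2a (chr11:99024180-99024309, minus strand): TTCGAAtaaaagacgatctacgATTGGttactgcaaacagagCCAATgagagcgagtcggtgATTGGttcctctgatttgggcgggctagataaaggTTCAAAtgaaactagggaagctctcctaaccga
Kif11 (chr19:37376262-37376391, plus strand): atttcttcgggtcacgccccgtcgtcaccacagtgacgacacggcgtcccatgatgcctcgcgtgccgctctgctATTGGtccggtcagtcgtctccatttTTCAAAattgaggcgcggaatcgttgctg
Ube2c (chr2:164769809-164769938, plus strand): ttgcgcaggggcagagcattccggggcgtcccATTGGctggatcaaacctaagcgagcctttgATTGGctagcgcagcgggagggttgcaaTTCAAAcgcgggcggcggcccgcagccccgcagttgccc
Prc1 (chr7:80294331-80294460, plus strand): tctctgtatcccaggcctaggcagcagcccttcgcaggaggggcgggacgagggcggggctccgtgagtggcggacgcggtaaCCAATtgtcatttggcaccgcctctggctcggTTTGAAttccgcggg
Kif23 (chr9:61946790-61946919, minus strand): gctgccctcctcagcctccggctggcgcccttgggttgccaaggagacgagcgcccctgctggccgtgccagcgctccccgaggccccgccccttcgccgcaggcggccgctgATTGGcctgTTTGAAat
Birc5 (chr11:117849117-117849246, plus strand): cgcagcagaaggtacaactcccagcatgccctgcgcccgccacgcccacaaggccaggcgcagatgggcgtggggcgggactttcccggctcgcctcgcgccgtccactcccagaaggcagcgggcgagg
The windows of *Prc1* and *Kif23* both held 1 CHR and 1 CCAAT match. These genes were picked by their change, and whether the motifs bear on it was not tested. Members with a CHR had a median log2 change in drug-treated WT DCs of -0.22 (26 genes, range -0.56 to 0.32) and those without one of -0.10 (8 genes, -0.38 to 0.12). In GEF-H1-/- DCs these medians were 0.09 and 0.02.

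**Figure D1:**
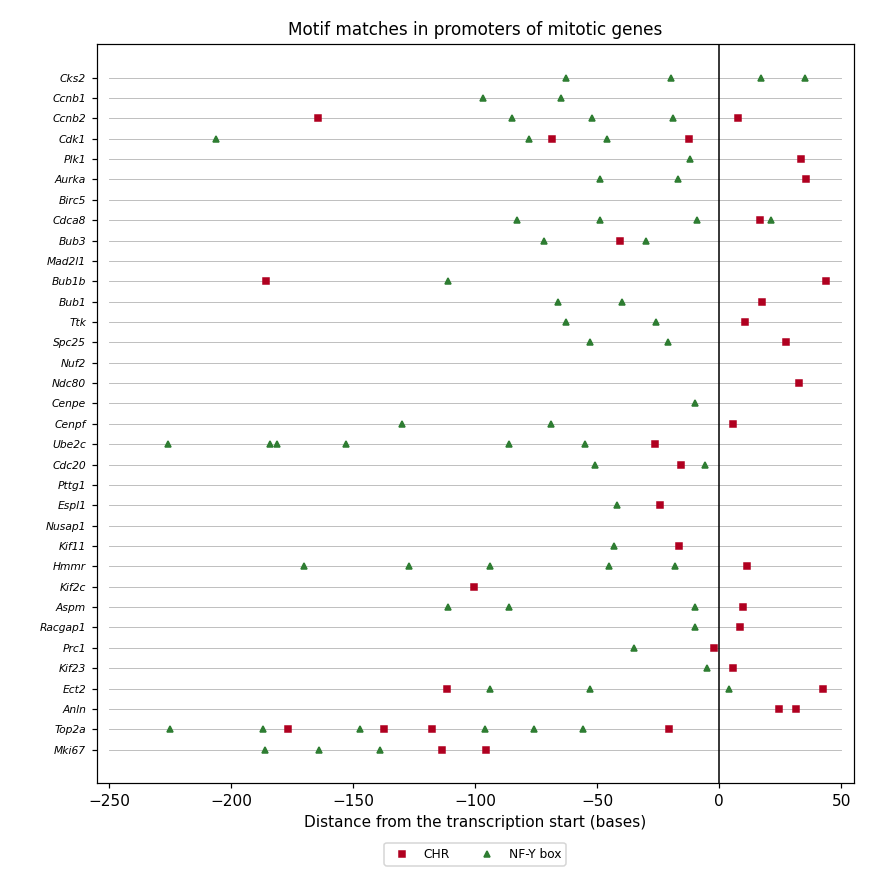
Matches to the CHR (red squares) and to the CCAAT or NF-Y box (green triangles) in the promoters of the 34 mitotic genes with a RefSeq window, 1 line per gene, with the distance from the transcription start in bases on the x axis. Of 35 CHR matches, 25 lie within 50 bases of the start, and the CCAAT matches lie mostly ahead of them.

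The mitotic genes were well expressed in all 4 groups. In untreated WT DCs their levels ran from 3.28 FPKM (*Aspm*) to 105.6 FPKM (*Ube2c*), with a median of 25.9 FPKM, which was the 71.2th percentile of the 11397 genes that passed the filter, and 30 of 39 lay above the median of all those genes (12.3 FPKM). The median was 22.9 FPKM in drug-treated WT, 23.7 in untreated GEF-H1-/- and 26.1 in drug-treated GEF-H1-/- DCs. FPKM is a level per length, so genes can be ordered by it. *Ube2c* was highest in every group, and *Aspm* was lowest in every group but drug-treated GEF-H1-/- DCs, where *Cenpf* was. The order was continuous: of 38 pairs of neighbours, 1 in each group had intervals that did not overlap (in WT DCs *Ttk* above *Cenpf*), and the median interval was 41.4% to 42.9% of the FPKM wide.

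**Figure D2:**
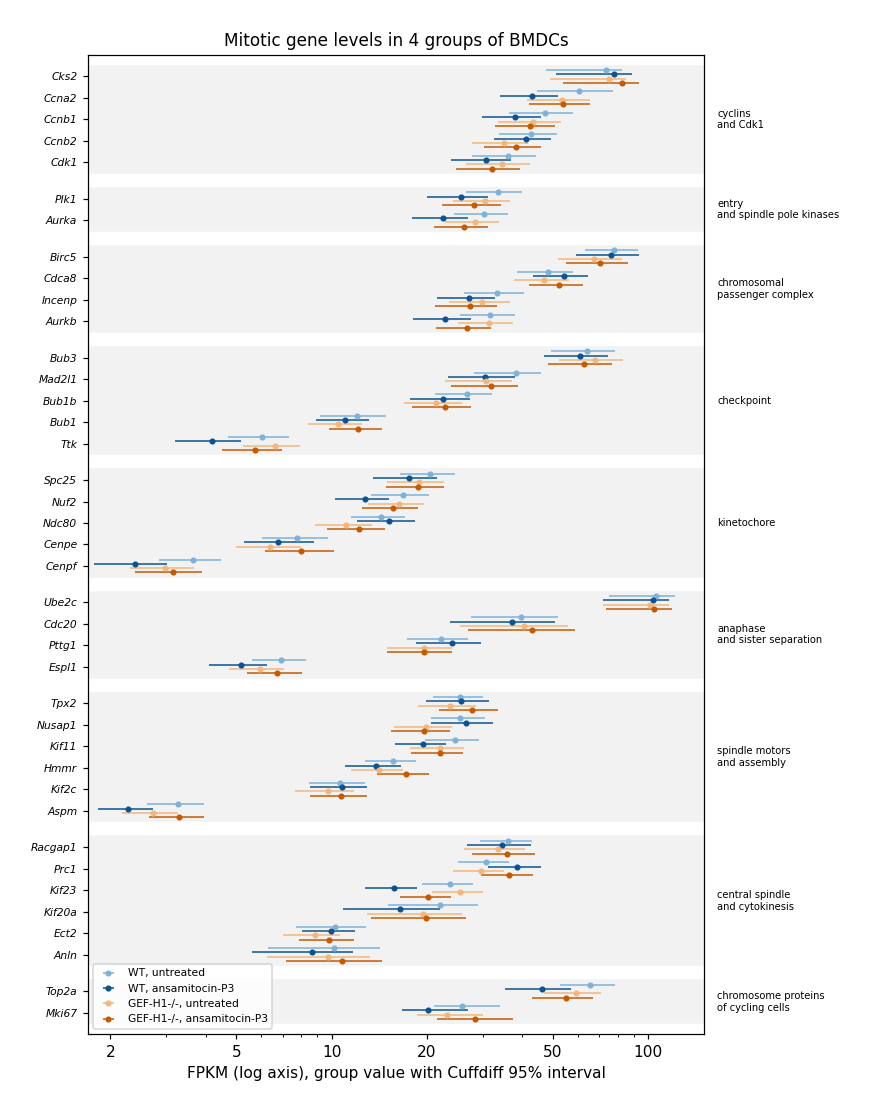
FPKM of the 39 mitotic genes on a log axis in untreated (light) and drug-treated (dark) WT (blue) and GEF-H1-/- (orange) DCs, grouped by role, with the Cuffdiff 95% interval as a bar. The levels run from 2.28 to 105.6 FPKM, and within each gene the intervals of the 4 groups nearly all overlap.

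After ansamitocin-P3, most mitotic transcripts stood slightly below their control level in WT DCs, mostly within the error that Cuffdiff gives. Of 39 genes, 31 were below their control level and 8 above, with a median log2 change of -0.22 (range -0.56 to 0.32), whereas 49.6% of all genes tested were below control and the median of all genes was 0.001. Genes of the same phase of the cycle can move together, so here and below such counts are not 39 separate observations. None of the 39 was changed 2-fold in either direction, beside 3.66% of all genes called higher and 1.28% called lower. The intervals of untreated and drug-treated cells did not overlap for 1 of 39, *Kif23*, which was lower, and for none that was higher, beside 7.58% of all genes lower and 9.19% higher by this measure. The upper bound of the change was under 1 for 39 of 39, so a 2-fold rise lay outside the interval of each of them (87.8% of all genes), and it was under 0 for 10 of 39 (14.5% of all genes). A rise smaller than this could not be seen for every gene at this precision, since the median interval of a change was 0.82 wide on the log2 scale. The summed level of the 39 genes was 1228.5 FPKM in untreated and 1101 FPKM in drug-treated WT DCs (89.6% of control). The summed FPKM of all genes with a status of OK was 604772 and 734144 in these groups, so the 39 genes made up 0.203% and 0.150% of it. This share was lower in part because the total was higher in drug-treated WT DCs, although the median change of all genes was 0.001.

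In GEF-H1-/- DCs the same genes stood close to their control level. The median log2 change was 0.06 (range -0.32 to 0.29), with 26 genes above and 13 below control, beside 47.6% of all genes above and a median of -0.009 over all genes. None was changed 2-fold (0.807% of all genes called higher and 0.272% lower), none had intervals that did not overlap (2.75% higher and 0.956% lower among all genes), and no interval of a change excluded 0 (3.21% of all genes below and 5.76% above). The upper bound was again under 1 for 39 of 39 (95% of all genes). Their summed level was 1136 FPKM in untreated and 1163 FPKM in drug-treated GEF-H1-/- DCs, or 0.191% and 0.190% of the summed FPKM of all genes (594706 and 612810).

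**Figure D3:**
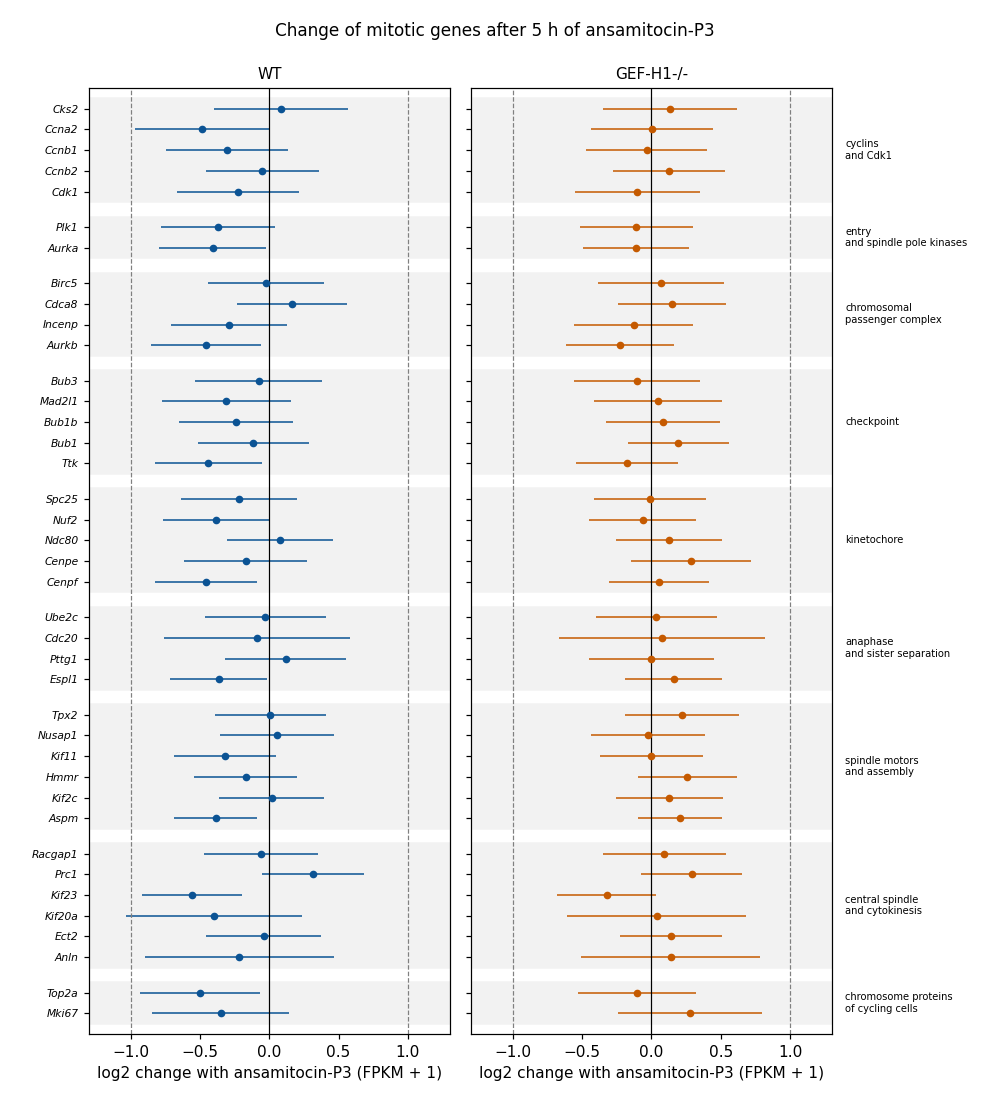
Log2 change of FPKM + 1 with ansamitocin-P3 for the 39 mitotic genes in WT (left, blue) and GEF-H1-/- DCs (right, orange), grouped by role, with the interval combined from the Cuffdiff bounds as a bar and the 2-fold limits as dashed lines. In WT DCs 31 of 39 points lie left of 0 and in GEF-H1-/- DCs 13, and no bar reaches the limit of 1 on the right.

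The cyclins and their kinase drive entry into mitosis. *Ccnb1*, which encodes cyclin B1, the activator of Cdk1 that has to be destroyed for mitosis to end (chr13:100778739-100786486, GRCm38), was at 47.2 FPKM (95% interval 36.2 to 57.9) in untreated and 37.9 (29.8 to 46.0) in drug-treated WT DCs, and at 43.3 (33.4 to 53.1) and 42.3 (32.8 to 50.6) in untreated and drug-treated GEF-H1-/- DCs. The intervals of all 4 groups overlapped, and the log2 change was -0.31 (-0.75 to 0.13) in WT and -0.03 (-0.47 to 0.40) in GEF-H1-/- DCs. *Ccna2*, encoding cyclin A2 of S and G2 phase, was at 60.6 FPKM in untreated WT, 43.0 in drug-treated WT, 53.4 in untreated GEF-H1-/- and 53.7 in drug-treated GEF-H1-/- DCs, the lowest value being that of drug-treated WT cells (log2 change -0.49, upper bound just below 0, against 0.01 in GEF-H1-/- DCs). *Ccnb2* (cyclin B2) differed by -0.05 and 0.13, *Cdk1*, the mitotic kinase itself, by -0.23 and -0.10, and *Cks2*, its small binding partner, by 0.08 and 0.13 in WT and GEF-H1-/- DCs. *Ccnb1* and *Ccnb2* have a pseudogene copy each in GENCODE, and *Ccna2* shared a Cuffdiff locus with another gene, so reads may have been divided between them.

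*Plk1* and *Aurka* encode the kinases that trigger entry and build the spindle poles. *Plk1* was at 33.4 and 25.6 FPKM in untreated and drug-treated WT DCs and at 30.5 and 28.2 in untreated and drug-treated GEF-H1-/- DCs. *Aurka* was at 30.2 and 22.5 FPKM in WT and at 28.3 and 26.1 in GEF-H1-/- DCs. Both were lowest in drug-treated WT cells, with log2 changes of -0.37 and -0.41 there and of -0.11 for either gene without GEF-H1. The chromosomal passenger complex corrects faulty attachments of chromosomes to the spindle. Its kinase gene *Aurkb* was at 31.7 and 22.9 FPKM in untreated and drug-treated WT DCs and at 31.3 and 26.7 in GEF-H1-/- DCs (-0.46 and -0.23 on the log2 scale), and *Incenp*, its scaffold, differed by -0.29 and -0.13. The other two subunits stood close to or above control in WT DCs, *Birc5* (survivin) at -0.03 and *Cdca8* (borealin) at 0.16, with 0.07 and 0.15 in GEF-H1-/- DCs.

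The checkpoint genes encode the proteins that sense unattached kinetochores and delay anaphase, the step a microtubule destabilizer keeps active. All 5 were below control in drug-treated WT DCs (median log2 change -0.24), beside 31 of the 39 genes and 49.6% of all genes. In GEF-H1-/- DCs 3 of 5 were above it (median 0.05), beside 26 of the 39 and 47.6% of all genes. The interval of the WT change lay below 0 for 1 of 5, *Ttk* (14.5% of all genes). *Mad2l1*, which encodes MAD2, the inhibitor of the anaphase activator Cdc20 (chr6:66535468-66540991), was at 38.1 FPKM (28.2 to 45.8) in untreated and 30.6 (23.3 to 37.8) in drug-treated WT DCs, and at 30.8 (22.8 to 37.0) and 31.9 (23.9 to 38.8) in untreated and drug-treated GEF-H1-/- DCs. Untreated WT cells were the highest of the 4 groups, and all intervals overlapped. *Ttk*, the kinase (MPS1) at the head of the pathway, had the largest difference among them in WT DCs, from 6.03 FPKM (4.72 to 7.34) to 4.18 (3.20 to 5.16), a log2 change of -0.44 (-0.82 to -0.06), and was at 6.60 and 5.73 FPKM in GEF-H1-/- DCs. *Bub1* and *Bub1b* (BUBR1), both bound at unattached kinetochores, differed by -0.12 and -0.24 in the presence of GEF-H1 and by 0.19 and 0.09 in its absence. Their partner *Bub3* stood at 64.1, 60.8, 67.7 and 62.8 FPKM in untreated WT, drug-treated WT, untreated GEF-H1-/- and drug-treated GEF-H1-/- DCs, with overlapping intervals.

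Kinetochore genes encode the plate on the centromere to which microtubules bind. *Ndc80*, *Nuf2* and *Spc25* are subunits of the 1 complex that grips the microtubule, yet their values in drug-treated WT DCs ran in both directions, at 0.08, -0.38 and -0.22 on the log2 scale. Without GEF-H1 these values were 0.12, -0.06 and -0.01. Among the large outer kinetochore proteins, *Cenpf* was at 3.66 FPKM (2.85 to 4.48) in untreated and 2.39 (1.77 to 3.02) in drug-treated WT DCs and at 2.98 and 3.14 FPKM in GEF-H1-/- DCs, which gave changes of -0.46 (-0.82 to -0.09) and 0.06 on the log2 scale. *Cenpe*, a kinesin that carries chromosomes to the spindle equator, differed by -0.17 with GEF-H1 and by 0.29 without it.

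Among the roles, the genes of the exit from mitosis had the median nearest to control in WT DCs (-0.06). *Ube2c*, the ubiquitin-conjugating enzyme of the anaphase-promoting complex (APC/C), was at 105.6, 103.4, 101.5 and 104.1 FPKM in untreated WT, drug-treated WT, untreated GEF-H1-/- and drug-treated GEF-H1-/- DCs. *Cdc20*, the activator that the checkpoint blocks, was at 39.7, 37.2, 40.6 and 42.8 FPKM in the same order, with wide intervals (27.6 to 51.9 FPKM in untreated WT DCs) and a locus shared with another gene. For both, the intervals of the 4 groups overlapped almost wholly. *Pttg1* (securin), the inhibitor of separase, differed by 0.12 and 0.00 in WT and GEF-H1-/- DCs. *Espl1* encodes separase, the protease that frees sister chromatids (chr15:102296293-102324356). It was at 6.94 FPKM (5.59 to 8.30) in untreated and 5.17 (4.10 to 6.23) in drug-treated WT DCs against 5.92 (4.75 to 7.08) and 6.74 (5.40 to 8.08) in GEF-H1-/- DCs (-0.37 and 0.16 on the log2 scale). Its intervals in the 4 groups overlapped, and the interval of its WT change (-0.72 to -0.015) overlapped those of *Ube2c*, *Cdc20* and *Pttg1*.

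The spindle motors and assembly factors separate the poles and focus and bundle microtubules. *Kif11*, the kinesin (Eg5) that pushes the poles apart, was at 24.5 and 19.5 FPKM in untreated and drug-treated WT DCs and at 21.9 and 22.0 in GEF-H1-/- DCs. *Aspm*, a pole-focusing protein (chr1:139454773-139494088), was at 3.28 FPKM (2.62 to 3.94) and 2.28 (1.82 to 2.73) in WT and at 2.73 (2.17 to 3.28) and 3.30 (2.65 to 3.94) in GEF-H1-/- DCs, so its value in drug-treated cells was the lowest of the 4 groups in WT and the highest in GEF-H1-/- DCs. The other 4, *Kif2c*, a kinesin that depolymerizes microtubules, *Tpx2*, the activator of Aurora A on the spindle, *Nusap1*, a microtubule-bundling protein, and *Hmmr*, which acts at the poles, lay between -0.17 and 0.05 in WT and between -0.02 and 0.26 in GEF-H1-/- DCs. *Nusap1* shared its locus with another gene.

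On the FPKM + 1 scale, the 2 ends of the range in WT DCs were both genes of the central spindle. This is the bundle of antiparallel microtubules that forms between the separating chromosomes. Without the added 1, the kinetochore gene *Cenpf* had the lowest change in WT DCs (-34.6%, against -33.5% for *Kif23*). *Kif23* (chr9:61917278-61946799), the motor subunit (MKLP1) of centralspindlin, was at 23.6 FPKM (19.3 to 27.9) in untreated and 15.7 (12.8 to 18.7) in drug-treated WT DCs, and at 25.4 (20.8 to 30.1) and 20.1 (16.4 to 23.9) in untreated and drug-treated GEF-H1-/- DCs. Drug-treated cells were lower in both genotypes, with log2 differences of -0.56 (-0.92 to -0.20) and -0.32 (-0.68 to 0.04). *Prc1* (chr7:80294465-80316259), the protein that cross-links the microtubules of that bundle, was at 30.7 FPKM (25.1 to 36.3) and 38.5 (31.2 to 45.8) in WT and at 29.6 (24.1 to 35.002) and 36.4 (29.7 to 43.1) in GEF-H1-/- DCs. It was thus higher in drug-treated cells of both genotypes by nearly the same amount, 0.32 (-0.05 to 0.68) and 0.29 (-0.07 to 0.66). On this scale that was the highest change of the 39 genes in each genotype. *Racgap1*, the partner of *Kif23* in centralspindlin, and *Ect2*, the RhoA exchange factor it recruits to start the cleavage furrow, differed by -0.06 and -0.04 in WT and by 0.09 and 0.14 in DCs without GEF-H1. *Kif20a*, a motor of the central spindle, and *Anln*, the furrow scaffold anillin, differed by -0.40 and -0.22 in WT and by 0.04 and 0.14 in the knockout, with intervals that included 0, and each shared its Cuffdiff locus with other genes.

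Of the chromosome proteins of cycling cells, *Top2a*, the topoisomerase that untangles sister chromatids (chr11:98992947-99024189), was at 65.6 FPKM (52.7 to 78.6) in untreated and 46.1 (35.4 to 57.0) in drug-treated WT DCs, and at 59.1 (47.0 to 71.1) and 54.9 (43.0 to 66.99) in untreated and drug-treated GEF-H1-/- DCs. The log2 change was -0.50 (-0.94 to -0.07) in WT and -0.10 (-0.53 to 0.32) in GEF-H1-/- DCs. *Mki67* (chr7:135689788-135716379), which encodes the proliferation antigen Ki-67 that coats mitotic chromosomes, was at 25.9 FPKM (21.1 to 34.1) and 20.1 (16.7 to 26.9) in WT and at 23.2 (18.7 to 30.1) and 28.4 (21.5 to 37.3) in GEF-H1-/- DCs. Like *Aspm*, it was lowest in drug-treated WT and highest in drug-treated GEF-H1-/- DCs, although all of its intervals overlapped.

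The change in WT minus that in GEF-H1-/- DCs was below 0 for 34 of 39 genes, beside 48.4% of all genes, with a median of -0.24 (range -0.63 to 0.12). Set side by side, 19 of 39 were below control in drug-treated WT and above it in drug-treated GEF-H1-/- DCs (1218 of all 11397 genes), 12 were below in both, 7 above in both and 1, *Nusap1*, above in WT only. For none of the 39 did the changes differ 2-fold (0.535% of all genes lower in this sense and 1.36% higher). At 1.5-fold 2 of 39 did, *Mki67* at -0.63 (-1.35 to 0.09) and *Aspm* at -0.59 (-1.02 to -0.17), beside 3.38% of all genes lower, and both had changes of opposite sign in the 2 genotypes (1.62% of all genes). The interval of the difference lay below 0 for 2 of 39, *Aspm* and *Espl1* (-0.53, -1.02 to -0.03), beside 3.52% of all genes. These differences could not be tested against the spread between libraries.

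The untreated groups were not level. Untreated GEF-H1-/- DCs were below untreated WT DCs for 34 of 39 genes (52.1% of all genes), with a median log2 difference of -0.13, although none reached 2-fold (0.614% of all genes lower, 1.26% higher) and none had intervals that did not overlap (1.88% lower, 2.86% higher). Drug-treated GEF-H1-/- DCs were above drug-treated WT DCs for 30 of 39 genes (46.9% of all genes), with a median of 0.13, again with none at 2-fold (2% of all genes higher, 2.06% lower) or with intervals apart (7.02% higher, 6.73% lower). The combined interval lay above 0 for 1 of 39, *Aspm* (12.8% of all genes). These comparisons share groups with those of the drug, so they are not separate evidence. In summed FPKM, drug-treated WT, untreated GEF-H1-/- and drug-treated GEF-H1-/- DCs stood at 89.6%, 92.5% and 94.6% of untreated WT DCs. Marker levels of other cell types also differed between the genotypes. The summed level of 8 macrophage markers was 184 and 286 FPKM in untreated WT and GEF-H1-/- DCs, that of 9 mast cell and basophil markers 117 and 215 FPKM, and that of 10 granulocyte and neutrophil precursor markers 2456 and 1100 FPKM. Within the last list the genes ran both ways between the untreated groups, with 4 lower and 2 higher by intervals that did not overlap: *Ngp* (1707 and 702 FPKM), *Ltf*, *Camp* and *Fcnb* were lower in GEF-H1-/- DCs, and *Mpo* (26.4 and 63.1 FPKM) and *Ctsg* (27.7 and 49.4 FPKM) were higher, genes named after their values were seen. In drug-treated WT and GEF-H1-/- DCs the sums were 124 and 256 FPKM, 120 and 206 FPKM, and 2890 and 1024 FPKM. Of the 9 mast cell and basophil markers, *Mcpt4* and *Tpsb2* were under 1 FPKM in every group. The 7 that passed the filter were all higher in untreated GEF-H1-/- than in untreated WT DCs (47.7% of all genes). For 4 of them the intervals did not overlap (2.86% of all genes). The sum of 7 stem and progenitor markers ran from 29.6 to 36.4 FPKM, and that of 8 lymphoid markers from 25.1 to 42.9 FPKM. The part of these cells in the results for mitotic genes was not tested.

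Other genes of the cell cycle placed the mitotic genes among their neighbours. A further 48 G2/M genes ran as the 39 did, with a median of -0.15 in drug-treated WT DCs (34 of 48 below control) and 0.07 in drug-treated GEF-H1-/- DCs (33 of 48 above). None was changed 2-fold (3.66% of all genes higher and 1.28% lower in WT, 0.807% and 0.272% in GEF-H1-/- DCs). In WT DCs 3 had intervals that did not overlap (9.19% of all genes higher and 7.58% lower), *Zwint* higher and *Bora* and *Psrc1* lower, genes named here after their values were seen. The 35 S-phase genes, whose products replicate DNA, were lower by more. Their median was -0.49 in WT DCs, with 34 of 35 below control (49.6% of all genes) and 13 with intervals apart on the lower side (7.58% of all genes). In GEF-H1-/- DCs it was -0.23, with 35 of 35 below (52.3% of all genes) and 3 apart (0.956%). *Ung*, which removes uracil from DNA, was the single S-phase gene of 35 changed 2-fold, beside 1.28% of all genes lower in WT DCs. It went from 7.66 FPKM (5.61 to 9.78) to 0.895 (0.549 to 1.24) in WT DCs, while without GEF-H1 it was at 8.51 (6.61 to 10.4) and 4.76 (3.59 to 5.93). *Pcna*, the sliding clamp of DNA polymerase, by contrast stood at 189, 171, 186 and 174 FPKM in the 4 groups, with overlapping intervals.

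The regulators of G2/M transcription (21 genes) had medians of -0.14 and -0.10 in WT and GEF-H1-/- DCs. None was changed 2-fold (3.66% of all genes higher and 1.28% lower in WT, 0.807% and 0.272% in GEF-H1-/- DCs). In WT DCs 2 of 21, *Myb* and *Rbl2* (named after their values were seen), had intervals apart on the lower side, beside 7.58% of all genes. *Foxm1*, the forkhead activator of G2/M genes, was at 11.1, 10.5, 9.64 and 10.1 FPKM in untreated WT, drug-treated WT, untreated GEF-H1-/- and drug-treated GEF-H1-/- DCs, with overlapping intervals. *Mybl2* (B-Myb), which joins MuvB at the CHR in dividing cells, was at 11.6 FPKM (9.30 to 13.9) and 8.30 (6.68 to 9.93) in WT and at 13.6 and 11.7 in GEF-H1-/- DCs. APC/C subunits and inhibitors (15 genes) had medians of 0.06 and -0.01. None had intervals that did not overlap, beside 9.19% of all genes higher and 7.58% lower in WT and 2.75% and 0.956% in GEF-H1-/- DCs.

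Changes larger than those of any of the 39 genes were found among some genes that halt or start the cycle in G1. They were not confined to these, since *Zwint* among the other G2/M genes was 0.96 higher in WT DCs. The 14 G1 cyclins and CDK inhibitors that passed the filter had medians of 0.11 and 0.09 in WT and GEF-H1-/- DCs. *Ccnd1*, encoding cyclin D1, which drives G1, was at 19.8 FPKM (15.5 to 24.1) in untreated and 6.10 (4.87 to 7.34) in drug-treated WT DCs, a fall past 2-fold (-1.55), and at 14.1 (11.4 to 16.8) and 13.3 (10.8 to 15.9) in GEF-H1-/- DCs (-0.08). *Cdkn1a*, encoding the CDK inhibitor p21, was at 307 FPKM (248 to 367) and 589 (480 to 699) in WT, just short of 2-fold (0.94), and at 328 (268 to 387) and 352 (288 to 415) in GEF-H1-/- DCs (0.10). Drug-treated WT cells thus stood apart from the other 3 groups for both genes. Of 21 p53 targets in the table, 5 rose 2-fold with GEF-H1 present and 1 (*Gadd45a*) with it absent, beside 3.66% and 0.807% of all genes. Intervals lay apart on the higher side for 8 and 5 of them, beside 9.19% and 2.75% of all genes, with medians over the list of 0.18 and 0.00. The list ran both ways: 7 of 21 were below control in WT and 11 of 21 in GEF-H1-/- DCs (49.6% and 52.3% of all genes). Their lowest changes were -0.60 and -0.54. The stress-induced *Gadd45a*, which can restrain Cdk1, was at 10.3 FPKM (7.27 to 13.2) and 57.1 (41.4 to 68.2) in WT and at 8.23 (5.75 to 10.4) and 28.3 (20.6 to 34.7) in GEF-H1-/- DCs, or 2.37 and 1.67 higher on the log2 scale. In WT and GEF-H1-/- DCs, the antiproliferative *Btg2* stood 2.05 and 0.69 above control, the proapoptotic *Pmaip1* (Noxa) 1.76 and 0.99, the kinase genes *Plk3* 1.59 and 0.86 and *Plk2* (named after its values were seen) 1.13 and 0.67, and *Mdm2*, the ubiquitin ligase of p53, 0.94 and 0.35. The 39 mitotic genes, with a range of -0.56 to 0.32 in the same cells, did not reach changes of this size in either direction.

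**Figure D4:**
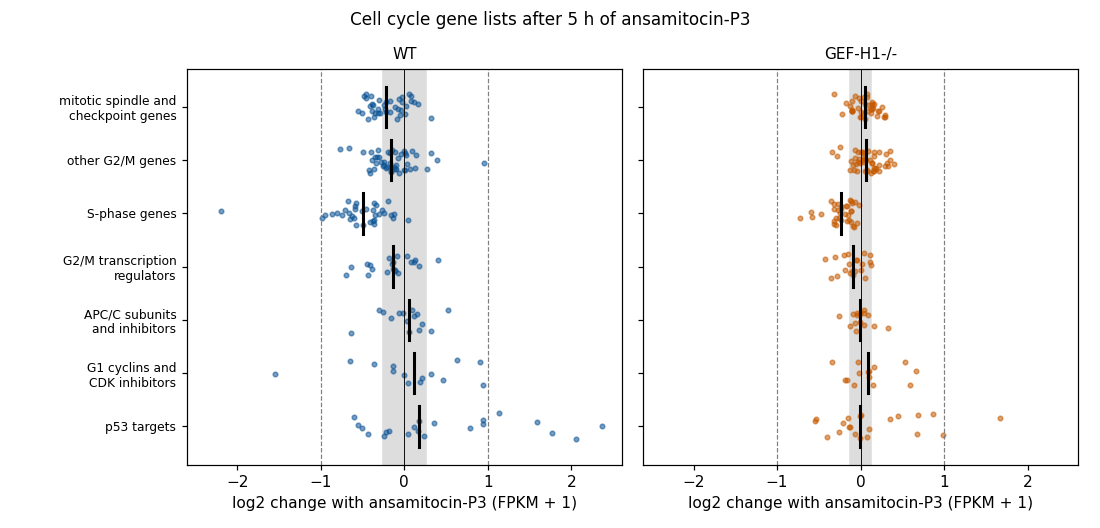
Log2 change of FPKM + 1 with ansamitocin-P3 in WT (left) and GEF-H1-/- DCs (right) for the mitotic genes and 6 other cell cycle gene lists, 1 point per gene, spread at random within a line, with the list's median as a black bar, the quartile range of all genes tested as a grey band and the 2-fold limits as dashed lines. The mitotic genes keep within the 2-fold limits in both genotypes, S-phase genes lie lower (medians -0.49 and -0.23) and the highest points belong to p53 targets.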

How the data were processed

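The 8 BMDC libraries (WT or GEF-H1-/-, without treatment or after 5 h of 100 nM ansamitocin-P3, each in duplicate) were stranded, paired-end mRNA libraries. FPKM were made by the authors with Cuffdiff in an online pipeline, and the labels name version 1.05 and the build mm10. The aligner and annotation are not given in the sources used here. The deposited table holds 1 FPKM per gene and group, a lower and an upper 95% bound, also in FPKM, and a status. The columns for WT cells name no genotype and were assigned by elimination. No per-sample column was left unused (0 columns). The read depth of the libraries was not determined, since FPKM does not keep it, so the width of the Cuffdiff interval is the measure of precision.

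Of 23356 genes, 107 without a status of OK were left out, and 11397 reached 1 FPKM in at least 1 group. Log2 ratios of FPKM + 1 were computed, a change was counted past 1, and the bounds of both groups were combined into an interval (normal error, groups independent, 1.96 standard errors). The limma fit planned for single libraries was not possible on pooled values. Locus starts in the table count from 0 and are given from 1. The members, gene lists and motifs were chosen with earlier results of these data known. The rule for named genes took every member, *Arhgef2*, of each other list up to 4 genes past 2-fold with the drug, and *Foxm1*, *Mybl2*, *Cdkn1a*, *Mdm2*, *Ccnd1* and *Pcna*. The alternatives were pseudocounts of 0.1 and 5 FPKM, other filters, median-ratio scaling (factors 0.993 to 1.001), other limits for a call and a shorter promoter window. The computation was tested on simulated data. Python 3.11.15, numpy 2.4.6, pandas 2.3.3 and matplotlib 3.10.9 were used.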

Additional observations from a re-analysis of the deposited data

Results flagged for a closer look

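In *Mki67* and *Aspm* the change with ansamitocin-P3 ran in opposite directions in the 2 genotypes and differed by more than 1.5-fold on the scale of FPKM + 1. Without the added 1, *Cenpf* and *Espl1* met this description too. For *Mki67*, the change in WT minus that in GEF-H1-/- DCs was -0.63 on the log2 scale, from a change of -0.35 with GEF-H1 and of 0.28 without it. For *Aspm* it was -0.59, from -0.39 and 0.21. The difference was not tested, because the table holds 1 pooled value per group. Among all genes tested, 1.62% (185 of 11397) met the same description, against 2 of 39 mitotic genes.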

How the results depend on the processing

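Of 110 values recomputed under 9 alternatives, 108 stayed within the limit set for them and 2 moved. For a median the limit was the median standard error of a member's change. That is about as large as the medians themselves or larger, so staying within it says little, and the ranges are given instead. No median changed sign. The median change of the mitotic genes lay between -0.23 and -0.18 in WT DCs and between 0.04 and 0.07 in DCs without GEF-H1, their difference from -0.25 to -0.19, and the difference between the genotypes from -0.14 to -0.11 in untreated and from 0.10 to 0.14 in treated cells. With a 1.5-fold limit, 2 genes were lower in the difference between the genotypes' changes, against 0 at 2-fold. This limit was not combined with another pseudocount. With the 250 bases before the start alone, the share of promoters with a CHR was 38.2%, against 76.5%, as 18 of 35 matches end after the start. A filter of 5 FPKM leaves out *Cenpf* and *Aspm*. No paired analysis was possible because the columns are pooled group values without replicate numbers, and for the same reason no library could be left out. The width of the Cuffdiff intervals limits what could be seen here.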

Other observations

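Among the 48 other G2/M genes, 3 had intervals that did not overlap in WT DCs, and they were picked out after their values were seen. *Zwint*, which anchors a checkpoint complex at the kinetochore, was at 19.99 FPKM (95% interval 16.1 to 23.8) in untreated and 39.7 (32.5 to 46.9) in drug-treated WT DCs, a log2 change of 0.96, and at 20.2 (16.4 to 24.1) and 25.2 (20.5 to 29.9) in GEF-H1-/- DCs. *Bora*, a partner of Aurora A in the activation of Plk1, was at 8.33 FPKM (6.36 to 10.3) and 4.46 (3.34 to 5.54) in WT and at 8.23 (6.30 to 10.1) and 8.57 (6.55 to 10.6) in GEF-H1-/- DCs. *Psrc1*, a microtubule-associated spindle protein, was at 13.8 FPKM (11.1 to 16.6) and 8.41 (6.47 to 10.4) in WT and at 15.7 (12.1 to 19.3) and 12.2 (9.39 to 15.03) in GEF-H1-/- DCs. *Zwint* and *Bora* thus stood apart in drug-treated WT cells in opposite directions. No value for a single library bears on any of these differences.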
